A study of Mus musculus with 6 samples.

Results

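Classical monocytes were examined in single-cell RNA sequencing libraries from the lungs of 6 aged male mice, and 974 of the 88616 cell barcodes that passed quality criteria were assigned to them. A barcode was counted as a classical monocyte when it held at least 1 unique molecular identifier (UMI, the tag that marks 1 captured transcript) of Ptprc, Ccr2 and F13a1 and at least 2 of Ly6c2. It also had to hold no UMI of C1qa, Flt3, Treml4, Cd3e or Cd79a. All mice were C57BL/6 males of 21 months that carried p16-CreERT2, a tamoxifen-inducible Cre recombinase under the control of p16. The 3 mice labelled p16-DTR also carried R26-LSL-DTR, a diphtheria toxin receptor that is silent until Cre removes a stop cassette, and the 3 mice labelled control did not. Tamoxifen was given to all 6 mice for 5 days, and 2 weeks later diphtheria toxin was given for another 5 days, followed by recovery over 2 weeks. Each library came from 1 mouse and combined 20000 CD45-negative with 9000 CD45-positive cells from the same digested lung, so the share of immune cells was set by the mixing. Members numbered 180, 178 and 168 in the p16-DTR libraries and 170, 162 and 116 in the control libraries. Their median depth lay between 25694 and 30122.5 UMIs per library, and the summed counts tested below lay between 3225285 and 5598851 UMIs.

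Classical monocytes are made in the bone marrow, leave it through the chemokine receptor CCR2, and circulate for a short time before they enter tissue or turn into nonclassical, patrolling monocytes. In the lung they sit in the blood vessels and the interstitium and can give rise to macrophages and antigen-presenting cells. They respond quickly to interferon and to bacterial products, and they carry coagulation and matrix proteins such as factor XIII and versican.

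The surface antigen by which mouse classical monocytes are sorted is encoded by Ly6c2, whose near-identical neighbour Ly6c1 is a gene of endothelium. Ly6c2 lies on chromosome 15 at 75108158-75111970 of GRCm38, on the minus strand. The longest coding transcripts of both genes were identical at 802 of 844 aligned bases (95.0%), and 35 of 311 windows of 90 bases at the 3′ end of Ly6c2 (11.3%) also occurred in Ly6c1, so some reads could not be assigned to either gene. Their RefSeq promoters (GRCm38.p6, from 250 bases before to 50 after the first start site listed) were identical at 214 of 340 aligned positions (62.9%). They are shown because members and endothelium differed in both genes in the counts, for Ly6c2 as the rule required. Capitals mark the letters GAGGAAGT, a form of the purine-rich motif read by the myeloid factor PU.1, searched on both strands.
Ly6c2, chr15:75111922-75112221, minus strand: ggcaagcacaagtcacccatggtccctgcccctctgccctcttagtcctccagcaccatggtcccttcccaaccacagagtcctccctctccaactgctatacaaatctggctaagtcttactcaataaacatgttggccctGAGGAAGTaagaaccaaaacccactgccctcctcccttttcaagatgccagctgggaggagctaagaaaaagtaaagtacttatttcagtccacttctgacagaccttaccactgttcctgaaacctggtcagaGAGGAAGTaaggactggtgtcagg
Ly6c1, chr15:75048788-75049087, minus strand: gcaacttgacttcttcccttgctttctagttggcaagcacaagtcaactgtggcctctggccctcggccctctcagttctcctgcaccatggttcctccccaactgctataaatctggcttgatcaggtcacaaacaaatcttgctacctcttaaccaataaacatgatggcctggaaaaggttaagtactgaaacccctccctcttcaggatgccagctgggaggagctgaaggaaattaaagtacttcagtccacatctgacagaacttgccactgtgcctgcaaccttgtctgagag
The Ly6c2 window held 2 matches and the Ly6c1 window 0, and of all 32851 RefSeq promoter windows of this length 1052 (3.20%) held at least 1. A second start site listed for Ly6c1 had 1 match in its window. The Ly6c1 window printed above ends inside that match, so its 0 depended on where the window was cut. Of the other marker genes, Ccr2, Vcan and Ms4a4c had 0 matches, and F13a1 had 1 in the window of its second listed start site. A match describes letters only and not a bound site.

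The 5 marker genes stood high in these cells, as the rule required for Ccr2, F13a1 and Ly6c2. In CPM (UMIs per 1000000 UMIs of the summed members), Ccr2, the receptor that draws monocytes out of the marrow, measured 1069, 1187 and 1071 in the p16-DTR libraries and 1519, 1217 and 1053 in the control libraries. The median member held 31 Ccr2 UMIs, far above the required minimum. Levels were compared with a nonclassical monocyte gate of 2112 barcodes, defined by Csf1r, Treml4 and Ace UMIs and by no F13a1 UMI. Ccr2 averaged 64.5 CPM there and 0.903 CPM in endothelial cells. Vcan (versican, a matrix proteoglycan) and Ms4a4c (a membrane protein of the MS4A family) were not part of the rule. Vcan averaged 625 CPM in members and 7.42 in nonclassical monocytes, and Ms4a4c 575 and 81.5. Ms4a4c was detected in nearly every member, and Vcan in 87.1%.

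**Figure D1:**
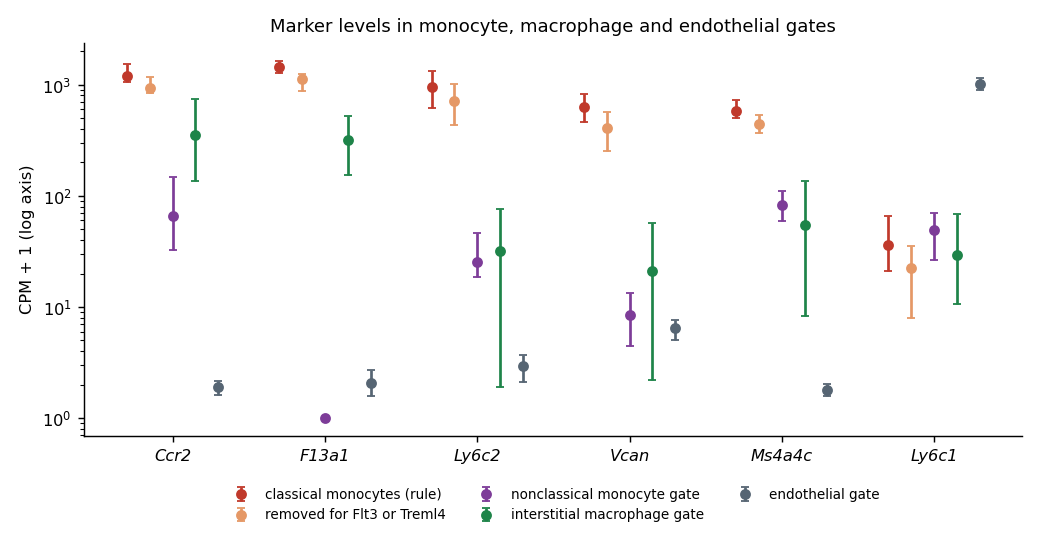
Mean level of the 5 markers and of Ly6c1 in CPM + 1 on a log axis, with bars from the lowest to the highest of the 6 libraries, in members, in cells removed by the Flt3 and Treml4 criteria, and in nonclassical monocyte, interstitial macrophage and endothelial gates. The markers were high in members and in removed cells, F13a1 was 0 in the nonclassical gate by definition, and Ly6c1 was highest in endothelium at 1013 CPM against 35.02 in members.

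Beyond the markers, 16 of 18 secreted, granule and coagulation genes, F13a1 and Vcan among them, were higher in members than in nonclassical monocytes in 6 of 6 libraries, as were 28.0% of all genes tested. Of 16 recruitment and adhesion genes 4 were higher and 7 lower in 6 of 6 libraries, where 28.0% and 24.98% of all genes tested were. The summed level of the 16 genes was 5834 CPM in members and 6909 in the nonclassical gate. Fn1 (fibronectin) averaged 1756 CPM against 57.7, Thbs1 (thrombospondin) 1784 against 248, and Cd177 (a neutrophil and monocyte adhesion antigen) 126 against 6.70. Cd14, the lipopolysaccharide co-receptor, averaged 1076 CPM against 382, and Chil3, a secreted chitinase-like protein, 686 against 136. All 10 listed genes of patrolling monocytes were lower in members in 6 of 6 libraries, Treml4 by the rule, where 24.98% of all genes tested were. Nr4a1 of that list was not low, at 561 CPM averaged over the Ly6c2-high and Ly6c2-low members described below. Adgre4 averaged 83.3 CPM against 1133 in the nonclassical gate, Spn (CD43) 31.6 against 407, Fcgr4 25.3 against 415, and Cd300e 0.710 against 283. Because both gates were drawn on genes of these programmes, the contrast is a description and was not tested.

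Markers of other cell types were summed in the members. The rule itself removed barcodes with C1qa, Cd3e or Cd79a UMIs, so low levels of macrophage and lymphoid genes follow in part from it and are no test of purity. The 8 interstitial macrophage genes summed to 616 ± 130 CPM in p16-DTR and 524 ± 192 in control libraries, with C1qb between 2.17 and 9.29 CPM against 3641 in the macrophage gate. The 8 alveolar macrophage genes summed to 11.5 ± 5.89 CPM in p16-DTR and 37.6 ± 28.7 in control libraries, most of it Car4, a gene also of endothelium, with Marco and Fabp1 at 0 in every library. The 10 neutrophil genes summed to 1910 ± 119 CPM (SD, n = 3) in p16-DTR and 1854 ± 1116 in control libraries, most of it S100a8 and S100a9, with Ly6g at or below 1.24 CPM. In the nonclassical gate the same 10 genes summed to 11457.5 CPM on average, from 4876 to 16625 between libraries. Transcripts of structural cells were present, with 8 genes summing to 259 ± 41.1 CPM in p16-DTR and 992 ± 1151 in control libraries. Summed markers of dendritic cells averaged 59.1 CPM in p16-DTR and 57.8 in control libraries, those of lymphoid cells 156 and 139, and those of platelets and erythroid cells 1.69 and 1.70. In control replicate 2, a single barcode held 8753 of the 9035 Sftpc (surfactant protein C) UMIs. By an excess of UMIs or at least 2 UMIs of other lineages, 267 members (27.4%) were labelled likely doublets. The UMIs of other lineages were summed over Pecam1, Cdh5, Epcam, Col1a2, Cd3d, Cd79b and Ms4a1. The part of free RNA and of depth in this label was not tested. Of the 974 members, 33 shared a barcode sequence with a barcode of another library.

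The rule itself removed many cells that met every positive criterion. There were 3954 such barcodes, of which 1756 (44.4%) held a Flt3 UMI and 1648 (41.7%) a Treml4 UMI, and these criteria alone removed 969 and 815 barcodes. Flt3 encodes a cytokine receptor of dendritic cell precursors and Treml4 a receptor of patrolling monocytes. In endothelial cells, which should lack both, the shares with a UMI were 0.237% and 0.385% at median depths between 15510 and 16789 UMIs. In B cells they were 15.99% and 3.21% at depths between 12786.5 and 15286.5. How much of the monocyte shares came from free RNA was not tested. Dropping both criteria gave 3182 barcodes. The cells so regained held Ccr2 at 937 CPM on average, F13a1 at 1114 and Ly6c2 at 707, which the positive criteria required, and Vcan, which they did not, at 406. All 5 marker genes were lower in them than in members in 6 of 6 libraries, where 9.36% of all genes tested were. Of 10 genes of MHC class II presentation 8 were higher in the regained cells in 6 of 6 libraries, and of 10 genes of patrolling monocytes all 10, Treml4 by the rule, where 8.78% of all genes tested were. H2-Aa (an MHC class II chain) averaged 920 CPM in them and 352 in members, Cd209a (a lectin of monocyte-derived dendritic cells) 42.6 and 2.93, Ace 123 and 53.3, and Adgre4 241 and 83.3. These differences follow in part from the rule. Of 10 neutrophil genes 6 were higher in the regained cells in 6 of 6 libraries, with S100a8 at 1812 CPM against 659, and their part in the other differences was not tested.

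At the Ly6c2 threshold, the 38 members with exactly 2 Ly6c2 UMIs had a median of 12.5 Ccr2 and 11 F13a1 UMIs at a median depth of 22045.5 UMIs. The 52 barcodes just outside, with 1 Ly6c2 UMI, had medians of 6 and 7 at a depth of 11452.5. Most members lay far from the threshold, with 862 holding 5 or more Ly6c2 UMIs.

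Members varied among themselves along Ly6c2. Each library was split at its median Ly6c2 level per UMI into Ly6c2-high and Ly6c2-low cells, with 58 to 90 cells in each subset and median depths between 25261 and 31653 UMIs. The split used Ly6c2 of the same cells, so the values are a description. Ms4a4c averaged 708 CPM in Ly6c2-high and 443 in Ly6c2-low cells, Vcan 750 and 504, and F13a1 1699 and 1210, each higher in 6 of 6 libraries. Of all 11088 other genes tested, 6.15% were higher in 6 of 6 libraries and 9.54% lower. Interferon-stimulated genes had higher means in Ly6c2-high cells for 24 of 24 genes, where 4742 of 11088 tested genes did, and 9 were higher in 6 of 6 libraries. Irf7, a factor that amplifies interferon production, averaged 173 CPM in Ly6c2-high and 93.5 in Ly6c2-low cells, and Ifi209, a cytosolic DNA-sensor family member, 293 and 180, each in 6 of 6 libraries. Of 10 genes of MHC class II presentation, 5 were lower in Ly6c2-high cells in 6 of 6 libraries and 1, the protease gene Ctss, was higher in 6 of 6. Of 8 tested genes of patrolling monocytes, 3 were lower in 6 of 6 libraries, while Spn was nearly level at 32.1 and 31.2 CPM. Of 11 tested macrophage differentiation genes 3 were lower in 6 of 6 libraries, and Trem2 was at 52.0 and 48.5 CPM. Cd74 (the invariant chain) averaged 742 CPM in Ly6c2-high and 1358 in Ly6c2-low cells, Adgre4 52.6 and 114, Cx3cr1 109 and 145, and Apoe 731 and 1017, each lower in 6 of 6 libraries. Transcripts of structural cells moved with this split, with means lower in Ly6c2-high cells for 6 of 7 tested genes of that list. Pdgfra, a receptor of fibroblasts, was at 11.7 CPM in Ly6c2-high and 72.3 in Ly6c2-low cells, lower in 6 of 6 libraries, and the endothelial cadherin Cdh5 at 29.7 and 94.2, lower in 5 of 6. Sftpc was at 64.5 and 705 CPM, the latter raised by 1 library at 3907 CPM. In control replicate 2, 1 barcode held 8753 of the 9035 Sftpc UMIs. Neutrophil genes moved as well, of which 3 of 7 tested were lower in Ly6c2-high cells in 6 of 6 libraries and 1, Mmp8, was higher. S100a8 was at 360 and 944 CPM and Retnlg at 36.2 and 143. The part of these transcripts in the other differences was not tested.

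**Figure D2:**
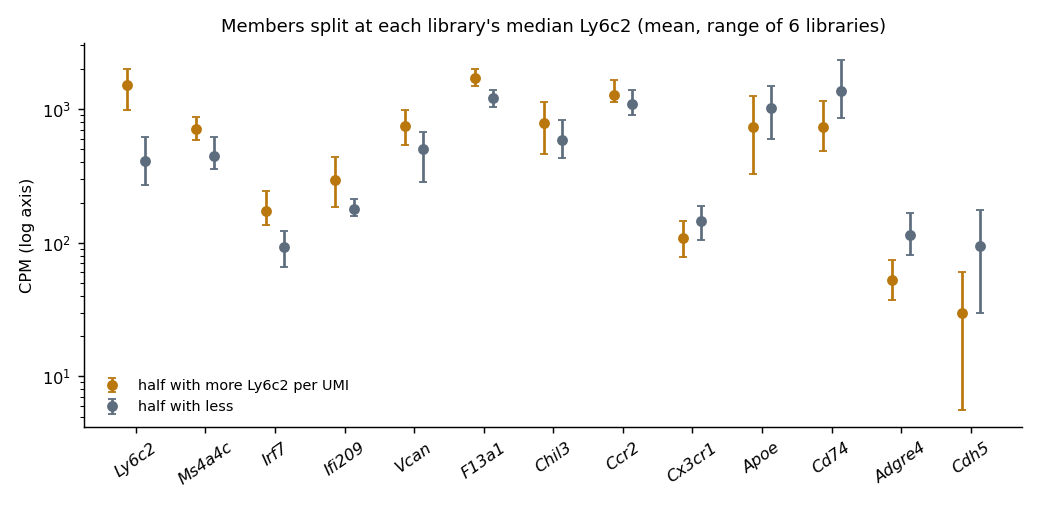
Mean CPM on a log axis, with bars from the lowest to the highest of 6 libraries, for members above and below their library's median Ly6c2 level per UMI. Ms4a4c, Irf7 and Ifi209 were higher beside Ly6c2, and Cd74, Adgre4 and the endothelial gene Cdh5 were lower.

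The first comparison between groups asked whether lungs treated to remove p16-high cells held a different share of classical monocytes. Cdkn2a, the gene of p16, was checked first. Summed over all barcodes its UMIs numbered 2011, 2533 and 2199 where the label was p16-DTR, against 395, 658 and 897 for control, which is the reverse of what the labels lead one to look for. Among members the counts were 13, 5 and 21 UMIs in 12, 5 and 17 cells, against 0, 0 and 5 UMIs in controls, the latter from 1 barcode. A count of 0 allows up to 3 UMIs. After thinning to 5000 UMIs, 0.977 ± 0.710% of members in libraries labelled p16-DTR and 0.300 ± 0.520% in controls held a Cdkn2a UMI, and the exact permutation p was 0.3. Unthinned, these shares were 6.53% and 0.287%, without overlap between the groups (exact permutation p = 0.1). The thinned shares in endothelial cells were 2.54% and 1.31%, in B cells 6.65% and 0.139%, and in nonclassical monocytes 2.81% and 0 of 862 control cells, which allows up to 0.348%. The groups did not overlap in any of these 3 classes, and these shares were not tested. A tdTomato entry in the count tables had 89, 74 and 94 UMIs over all barcodes in the p16-DTR libraries and 0 in each control library. Only 2 of these UMIs fell on members, both in p16-DTR replicate 1. Hbegf, the mouse counterpart of the toxin receptor, was detected in 3.70% of members, and 60 of its 67 UMIs in p16-DTR replicate 2 came from 1 barcode. All directions below follow the labels' group names.

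Classical monocytes made up 3.30%, 2.95% and 2.49% of barcodes with a Ptprc UMI in the p16-DTR libraries and 3.37%, 3.92% and 2.11% in the control libraries. The groups overlapped, and the means of 2.91 ± 0.406% and 3.13 ± 0.926% (SD, n = 3) did not differ beyond the spread between libraries (exact two-sided permutation p = 0.7). The smallest p that 3 against 3 libraries allow is 0.1. Without control replicate 2 the difference of the means, p16-DTR minus control, turned from -0.217 to 0.176 percentage points. Among classical plus nonclassical monocytes, classical cells were 31.5%, 30.6% and 27.6% in the p16-DTR libraries and 36.9%, 32.2% and 32.1% in the control libraries. These did not overlap, and the exact permutation p was 0.1, or 0.4 adjusted over 4 shares. With Flt3 and Treml4 unrestricted the p16-DTR mean was still lower but the groups overlapped, at 59.4 ± 4.19% against 60.9 ± 2.50%. The difference turned positive when the gates were applied after thinning (5.01 percentage points) or without likely doublets (2.24 percentage points). Without likely doublets the means were 51.8% and 49.5%, since that filter removed a larger part of the nonclassical gate than of members. The interstitial macrophage gate held 1.33 ± 0.424% of Ptprc barcodes in p16-DTR and 0.761 ± 0.228% in control libraries, with overlap (exact permutation p = 0.2, adjusted 0.4).

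**Figure D3:**
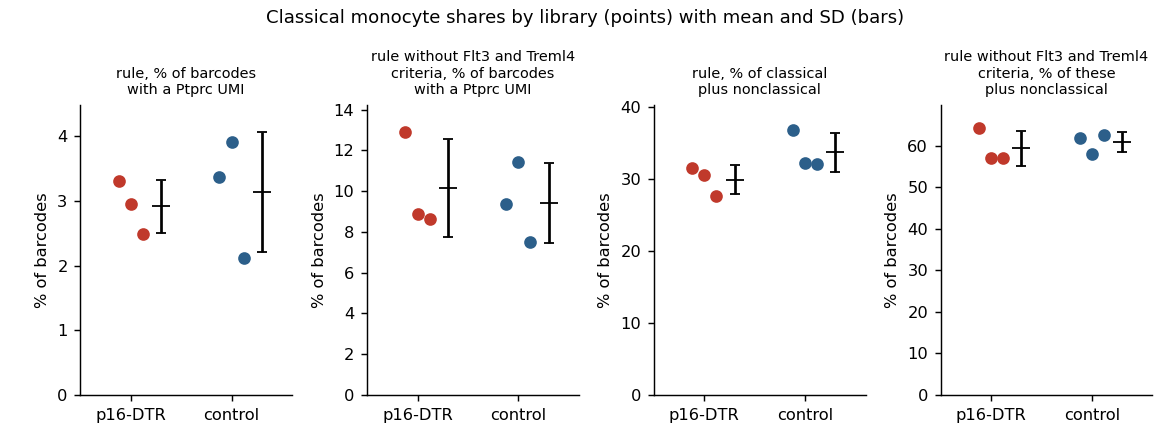
Shares in % of barcodes for the 3 p16-DTR and 3 control libraries (points), with mean and SD (bars), under the rule and with the Flt3 and Treml4 criteria dropped. The classical share of monocytes under the rule lay at 27.6 to 31.5% in p16-DTR and 32.1 to 36.9% in control libraries, and the groups overlapped in the other panels.

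Gene expression was then compared on UMI counts summed per library. No gene reached an adjusted p under 0.05 in the edgeR quasi-likelihood test, that is 0 of 11089 genes (0.0%), while 1126 had an unadjusted p under 0.05 and the smallest adjusted p was 0.19. Without p16-DTR replicate 1 there were 8 calls, and 0 when any other library was left out. DESeq2 on the same sums called 90 of 10645 genes (0.845%), 47 higher and 43 lower in p16-DTR. In CPM, 5.24% of genes were higher in all 3 p16-DTR libraries than in all 3 control libraries and 11.6% were lower. With TMM-scaled values these shares were 8.23% and 7.38%, so the split between higher and lower depended on scaling: 31.1% of non-overlapping genes were higher with CPM and 52.7% with TMM. Non-overlap below is in CPM, to be read against these shares, and counts with TMM scaling are added where they differ. Fold changes below are from edgeR with TMM scaling, and every one is reported without having passed adjustment there.

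Some of the genes with the smallest p, among those with a mean of at least 20 CPM and no overlap, are given here. Mt1 (a metal-binding metallothionein) measured 210, 198 and 194 CPM in the p16-DTR libraries and 137, 143 and 125 in the control libraries. All p16-DTR values were higher, with a log2 fold change of 0.62 (SE 0.08, edgeR adjusted p = 0.19), and the value was 0.92 without likely doublets. Fos, an immediate early transcription factor, measured 2275, 2318 and 2417 CPM against 1512, 1851 and 1779, or 0.50 on the log2 scale (edgeR adjusted p = 0.23). Maf, a macrophage-lineage factor, was close to constant within groups, at 68.6, 68.2 and 70.6 CPM against 45.6, 45.8 and 51.5. Cxcr4, the receptor that holds leukocytes in the marrow, measured 154, 160 and 187 CPM against 91.3, 123 and 111. These p16-DTR values all lay above the control values, with log2 fold changes of 0.60 for Maf and 0.68 for Cxcr4. The membrane protein Ms4a6b (log2 fold change 0.50), the kinase Pdpk1 (0.48), Rasgef1b (0.68) and the antiviral Trim30a (0.57) were placed the same way. Each of these 8 genes had a DESeq2 adjusted p under 0.05 on the same sums, the highest being 0.046 for Pdpk1. The genes Nr4a2, Dgkg, Pdzd2, Slit2 and Slit3, lower in p16-DTR and given next, also had a DESeq2 adjusted p under 0.05.

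The genes lower in every p16-DTR library differed in how many members carried them. Nr4a2, an orphan nuclear receptor related to Nr4a1, measured 325, 338 and 316 CPM against 433, 489 and 471 (log2 fold change -0.45, edgeR adjusted p = 0.23). Dgkg, a diacylglycerol kinase, measured 112, 112 and 97.1 CPM against 167, 156 and 152 (log2 fold change -0.51). Both were found in most members, 91.6% and 79.8%. For Nr4a1, a factor on which patrolling monocytes depend, a UMI was found after thinning in 86.0%, 86.2% and 85.0% of members in p16-DTR and 88.2%, 91.3% and 91.9% in control libraries, without overlap (exact permutation p = 0.1, adjusted over 8 genes 0.8). Unthinned, these shares were 98.1% and 99.2% (exact permutation p = 0.5), and with thinning to 3000 UMIs that p was 0.4. In CPM, Nr4a1 overlapped between the groups. In thinned endothelial cells the shares were 19.4% and 31.5%. By contrast Pdzd2 (13.8, 19.0 and 14.7 CPM against 37.4, 34.6 and 47.1), Slit2 and Slit3 (guidance ligands of stromal cells) were found in only 12.7%, 9.96% and 10.9% of members. Their log2 fold changes were -1.27, -1.63 and -1.21, and that of Pdzd2 was -2.54 without likely doublets. Over all barcodes of a library, Pdzd2 had 81439, 80427 and 61019 UMIs in p16-DTR against 152333, 96478 and 116488 in control libraries, without overlap. Slit2 had 98587, 80338 and 60733 against 199120, 91641 and 113488, and Slit3 100077, 104573 and 77088 against 215954, 93283 and 137411, both with overlap in these raw totals. The totals were not scaled to library depth, which was lowest in control replicate 2 at 254200305 UMIs and highest in control replicate 1 at 344421685. Whether such UMIs came from the monocytes or from other cells was not tested.

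The glucocorticoid-induced genes, those switched on by the stress hormone receptor, had the highest median of the 12 lists plotted. Of 10 genes 9 were tested, 6 had a log2 fold change above 0, and the median was 0.49 against -0.0013 over all genes. The p16-DTR values lay above all control values for 5 of 9 genes, against 5.24% of all genes (8.23% with TMM scaling). Fkbp5, a co-chaperone of the glucocorticoid receptor, measured 151, 122 and 219 CPM against 14.8, 90.6 and 47.4, or 1.75 on the log2 scale (SE 0.49, edgeR adjusted p = 0.32). Ddit4, an inhibitor of mTORC1, measured 21.1, 22.8 and 26.1 CPM against 5.60, 7.51 and 10.9, with a log2 fold change of 1.63 (SE 0.23, edgeR adjusted p = 0.19). Ddit4 was found in 47, 38 and 43 members against 16, 13 and 21, with 118, 102 and 126 UMIs against 28, 33 and 35. Over all barcodes of a library Ddit4 was also more frequent, at 11171, 8890 and 12153 UMIs against 4596, 6934 and 6363. Tsc22d3 (GILZ) and Klf9 had log2 fold changes of 0.70 and 0.58 without overlap. Per1 and Sgk1, 2 other targets of this receptor, had values of -0.02 and -0.04 with overlap, and Tns1 had -0.51, also with overlap.

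**Figure D4:**
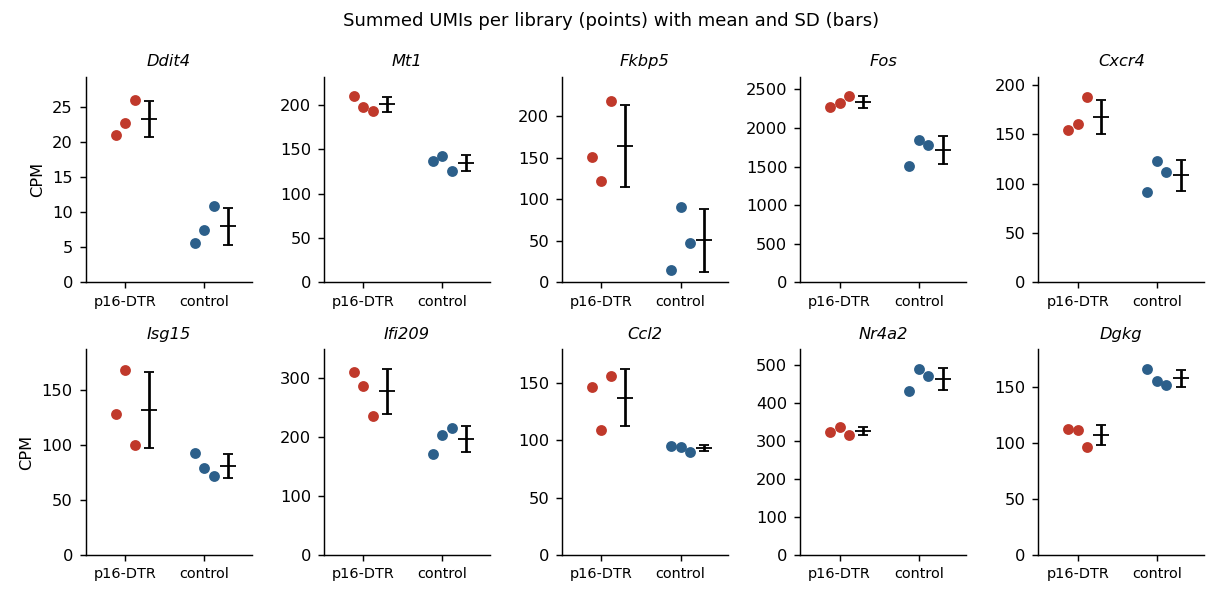
CPM of 10 genes in the 3 p16-DTR and 3 control libraries (points), with mean and SD (bars), each axis starting at 0. Ddit4, Mt1, Fkbp5, Fos, Cxcr4, Isg15, Ifi209 and Ccl2 were higher and Nr4a2 and Dgkg lower in every p16-DTR library, and 0 of the 10 passed adjustment in edgeR.

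Immediate early and heat-shock genes, which enzymatic dissociation of tissue also induces, were mixed. Of 16 tested genes 12 had a log2 fold change above 0, 5 were higher without overlap (5.24% of all genes were) and the median was 0.30. Their summed level was 10054, 11450 and 11137 CPM in the p16-DTR libraries and 7930, 9083 and 9087 in the control libraries. Atf3 measured 745, 796 and 837 CPM against 374, 609 and 586 (log2 fold change 0.66), and Dusp1, a phosphatase that is also a glucocorticoid target, 1260, 1585 and 1525 against 992, 1174 and 1074 (0.49). Junb and Egr1, of the same list, had log2 fold changes of 0.11 and -0.01 with overlap, and the heat-shock genes Hspa1a and Hspa1b -0.36 and -0.98, also with overlap and with control replicate 3 highest. The summed level did not overlap between the groups, and the part of these genes in the other differences was not tested.

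Interferon-stimulated genes were placed to 1 side as a list. All 24 tested genes had a log2 fold change above 0, where 5516 of 11089 genes (49.7%) did so, and the median was 0.42. Of the 24, 9 were higher without overlap (11 with TMM scaling), where 5.24% of all genes were (8.23% with TMM scaling). An unadjusted p under 0.05 was found for 16 of them and for 10.2% of all genes, and 0 passed adjustment, the smallest edgeR adjusted p being 0.26. Isg15, a ubiquitin-like effector, measured 128, 168 and 99.7 CPM in the p16-DTR libraries and 92.9, 78.8 and 71.6 in the control libraries (log2 fold change 0.75, SE 0.19, edgeR adjusted p = 0.31). After thinning to 5000 UMIs an Isg15 UMI was found in 33.0%, 40.2% and 18.0% of members in the p16-DTR libraries and in 23.5%, 21.9% and 22.5% in the control libraries. These shares overlapped, with p16-DTR replicate 3 lowest (exact permutation p = 0.4, adjusted over 8 genes 0.8), and were 59.7% and 49.6% without thinning and 15.9% and 15.3% in thinned endothelial cells. The difference was 7.74 percentage points at 5000 UMIs and 8.75 after thinning to 3000 UMIs (exact permutation p = 0.1 there, unadjusted). Ifi209 measured 309.5, 287 and 236 CPM against 171, 204 and 215 (0.55, SE 0.11). Ifitm3, an inhibitor of virus entry found in every member, measured 3513, 3717 and 3104 CPM against 2901, 3031 and 2893 (0.28). Rsad2, Ifit1 and Ifit3, antiviral effectors of the same list, had log2 fold changes of 0.03, 0.02 and 0.09 with overlap. Summed over the list, p16-DTR replicate 3 at 6885 CPM lay close to the control libraries, which ran from 6237 to 6781. In nonclassical monocytes of the same libraries, the log2 fold change was 0.47 for Isg15, 0.52 for Ifi209 and 0.13 for Ifitm3.

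**Figure D5:**
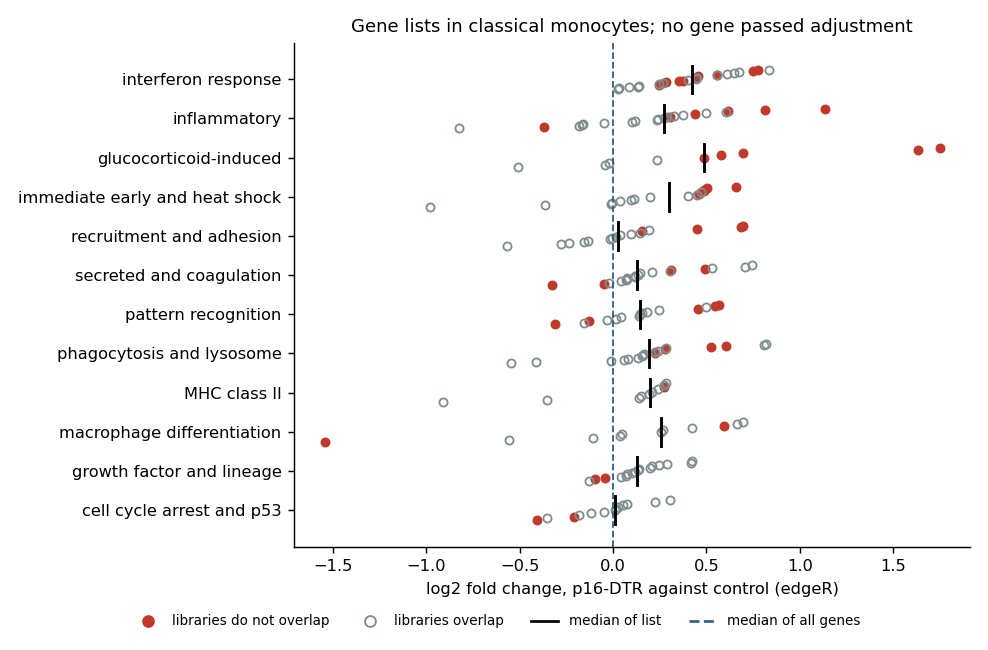
Log2 fold change of p16-DTR against control from edgeR for each tested gene of 12 lists, with filled points where the 3 libraries of one group all lay on one side of the other 3 in CPM. Black bars mark list medians and the dashed line the median of all genes at -0.0013, and 0 genes passed adjustment.

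The inflammatory list was mixed. Of 21 tested genes 15 had a log2 fold change above 0, 5 were higher and 1 lower without overlap, and with TMM scaling 8 and 1. Over all genes 5.24% were higher and 11.6% lower, and with TMM scaling 8.23% and 7.38%. Ccl2, the ligand of CCR2, measured 147, 109 and 156 CPM in the p16-DTR libraries and 95.3, 94.3 and 89.9 in the control libraries (log2 fold change 0.61, edgeR adjusted p = 0.27). Without likely doublets this value was 0.31. Cxcl2, a neutrophil attractant, measured 655, 993 and 791 CPM against 575, 373 and 496 (0.81), and Nfkbiz, an NF-κB co-regulator, 194, 205 and 219 against 150, 152 and 171 (0.44). Il1b ranged from 629 to 1414 CPM and overlapped, and so did Tnf. Relb, a subunit of NF-κB, was lower in p16-DTR without overlap (-0.37).

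Receptors and integrins that guide monocytes out of blood made up a list of 16 genes. Of these 9 had a log2 fold change above 0, the median was 0.02, and 4 were higher in p16-DTR without overlap, Cxcr4 among them. The share of all genes placed so was 5.24%. Ccr2, a gene of the rule and so given as a description, had -0.14, or 0.03 without control replicate 1, and Cd44 had 0.01, both with overlap. Itgal, an integrin chain that is higher in patrolling monocytes, measured 156, 184 and 161 CPM against 125, 115 and 143 (0.45). Cmklr1, the chemerin receptor, had 0.69 without overlap at a mean of only 23.8 CPM.

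Among secreted and coagulation products, F13a1 (factor XIII, which crosslinks fibrin) measured 1646, 1535 and 1558 CPM against 1261, 1400 and 1314, or 0.31 on the log2 scale. It is a gene of the rule, so this is a description. Plac8 measured 2781, 3016 and 2181 CPM against 1944, 1813 and 2148 (0.49). F5, coagulation factor V, was lower at 265, 284 and 205 CPM against 331, 294 and 358 (-0.33). Of the 18 genes 15 had a log2 fold change above 0, with 2 higher and 2 lower without overlap in CPM. With TMM scaling 3 were higher and 0 lower, and F5 overlapped. Shares over all genes were 5.24% higher and 11.6% lower in CPM, and 8.23% and 7.38% with TMM scaling. Chil3 had 0.71, with overlap in CPM and without it under TMM scaling, and the lysozyme gene Lyz2 0.14.

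Of 15 tested pattern recognition genes 11 had a log2 fold change above 0, and the median was 0.14. Without overlap 3 were higher and 2 lower in CPM (4 and 1 with TMM scaling), where 5.24% and 11.6% of all genes were (8.23% and 7.38% with TMM scaling). Tlr7, a sensor of RNA, and Nod1, a sensor of peptidoglycan, had 0.54 and 0.57, whereas Tlr2 had -0.31 and Cd14 -0.13, the latter with overlap under TMM scaling. Among phagocytic genes 15 of 18 had a log2 fold change above 0. Fcgr2b, the inhibitory Fc receptor, measured 245, 299 and 307 CPM against 222, 207 and 184 (0.52), and Fcgr1, the high-affinity receptor, 118, 147 and 97.7 against 93.3, 85.6 and 67.0 (0.60).

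MHC class II genes varied between libraries more than between groups. Their summed level was 3676, 6074 and 4149 CPM in the p16-DTR libraries and 4678, 3883 and 3924 in the control libraries, with p16-DTR replicate 2 highest. The interstitial macrophage gate reached 47895 CPM. Of 10 genes 8 had a log2 fold change above 0, and H2-DMa, a peptide-loading chain, was the member without overlap (0.27). The share of members with an H2-Ab1 UMI after thinning was 23.5 ± 7.89% in p16-DTR and 23.0 ± 0.552% in control libraries (exact permutation p = 1.0), and 42.4% and 44.1% without thinning. Thinned endothelial cells, which also express this gene, had 60.6% and 60.1%.

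Growth factor receptors and lineage factors had the narrowest range of the 12 lists plotted. Csf1r, the receptor for macrophage colony-stimulating factor, measured 358, 415 and 391 CPM against 366, 394 and 340 (log2 fold change 0.14). Spi1, the gene of PU.1, had 0.04 and Cebpb 0.10, both with overlap. In CPM 0 of the 16 genes were higher without overlap, and Csf2ra and Klf4 were lower at -0.04 and -0.10. With TMM scaling 2 were higher and 1, Klf4, was lower. All genes together had 5.24% higher and 11.6% lower in CPM, and 8.23% and 7.38% with TMM scaling. Macrophage differentiation genes gave a median of 0.26 over 11 tested of 16 listed. Maf (0.60) was higher without overlap and Gpnmb, at a mean of 3.29 CPM, lower (-1.54, or -0.56 without control replicate 2). Apoe (0.66) overlapped, and the 5 genes that were too low to be tested included C1qc, Spp1 and Arg1.

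Genes of cell cycle arrest and of the p53 response, the programme to which p16 belongs, were balanced around 0. Of 13 tested of 16 listed genes 7 had a log2 fold change above 0, and the median was 0.01. Cdkn1a, the gene of the arrest protein p21, measured 508, 483 and 453 CPM in the p16-DTR libraries and 629, 544 and 557 in the control libraries. These did not overlap, with a log2 fold change of -0.21 (SE 0.08, edgeR adjusted p = 0.45), or -0.13 without control replicate 1. Cdkn2c had -0.40 without overlap, or -0.18 without likely doublets, and Mdm2 and Bax, both p53 targets, 0.01 and 0.02. Proliferation genes were low. Mki67 had 282 UMIs in p16-DTR replicate 1, of which 130 came from 1 barcode, and 15 to 39 in the other 5 libraries. Of genes followed across cell classes, Kctd5 had 0.49 and Cirbp -0.29 without overlap, and Rbm3, like Cirbp a cold-inducible RNA-binding protein, had -0.09 with overlap.

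The last comparison asked whether the difference between groups was of another size in classical than in nonclassical monocytes. With the library as a block, edgeR called 5 of 12269 genes (0.0408%). For Calcrl, a receptor subunit for adrenomedullin, the level was 137, 111 and 112 CPM in classical monocytes of the p16-DTR libraries and 190, 238 and 308 in those of the control libraries. In nonclassical monocytes it was 368, 304 and 352 against 152, 225 and 236, the opposite order. The difference between both effects was -1.70 on the log2 scale (SE 0.11, edgeR adjusted p = 0.0019). The other 4 genes were Ptprg (-1.31), Adgrl2 (-1.71), Ramp2, the partner of Calcrl (-1.67), and Ccdc85a (-2.24). All 5 were far higher in endothelial cells than in monocytes, Calcrl at 5014 CPM and Ramp2 at 1754. Without likely doublets 0 of 9822 genes were called (621 had an unadjusted p under 0.05), and the effect on Calcrl in classical monocytes moved from -0.97 to -0.01. That filter removed a larger part of the nonclassical gate than of members, and fewer genes were tested. Leaving out p16-DTR replicate 2 gave 13 calls and leaving out control replicate 2 gave 7, and each of the other 4 libraries left out gave 1.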

How the data were processed

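Single-cell RNA libraries (10x GEM-X 3′) of 6 mouse lungs were deposited as raw UMI counts per gene and barcode, without normalization. They were made by the authors with Cell Ranger 8.0.1 on mm10, per the file headers and the submitters' processing notes. The annotation release and cell-calling settings are not given in the sources used here. Of 31054 features, 31011 matched GENCODE M21 (GRCm38). Quality criteria were a minimum of 500 genes and 1000 UMIs and a mitochondrial share of no more than 15%, which 12667 to 16426 barcodes per library met. Members and gene lists were chosen with earlier results of these data known. UMIs of members were summed per library, since cells are not replicates, and tested with edgeR 4.0.16 (quasi-likelihood, filterByExpr, TMM, Benjamini-Hochberg at 0.05 over all genes) in R 4.3.3. CPM values are UMIs per 1000000 of the summed members. Standard errors are approximated from the test statistic. Shares were compared with exact permutation tests over libraries. For shares of cells with a UMI, cells were thinned to 5000 UMIs, which left out 6 p16-DTR and 7 control members. Named genes were the rule's and marker genes, Cdkn2a, Cdkn1a, Hbegf, tdTomato, Pdpk1, Kctd5, Cirbp and Rbm3, 15 non-overlapping genes with the smallest p at a mean of at least 20 CPM, and of each of 23 lists the 4 highest and the 2 with the smallest p. Some genes that this rule names are not reported here. Other genes were chosen after their values were seen. Alternatives were DESeq2 1.42.0, RLE or library-size scaling, no low-count filter, other gates, likely doublets (over 2 times the median UMIs, or at least 2 UMIs of other lineages) left out, equal member numbers, the replicate block and each library left out. The pipeline was tested on simulated counts. Tables used pandas 2.3.3 and numpy 2.4.6 under Python 3.11.15, the adjustment of p over shares used scipy 1.17.1 and plots matplotlib 3.10.9.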

Additional observations from a re-analysis of the deposited data

Results flagged for a closer look

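For 5 genes the difference between the p16-DTR and control libraries was of another size in classical than in nonclassical monocytes, by the edgeR test of that difference with Benjamini-Hochberg adjustment. On the log2 scale, the effect in classical minus that in nonclassical monocytes was -1.70 for Calcrl (adjusted p = 0.0019), -1.31 for Ptprg (0.010), -1.71 for Adgrl2 (0.038), -1.67 for Ramp2 (0.038) and -2.24 for Ccdc85a (0.038). In nonclassical monocytes, each of these genes was higher in all 3 p16-DTR libraries than in all 3 control libraries. In classical monocytes Calcrl, Adgrl2 and Ramp2 were lower in all 3 p16-DTR libraries, and Ptprg and Ccdc85a overlapped. Endothelial cells held 5014 CPM of Calcrl, 1451 of Ptprg, 782 of Adgrl2, 1754 of Ramp2 and 447 of Ccdc85a. Of classical monocytes, 42.0% held a Calcrl UMI and 6.88% a Ccdc85a UMI. With likely doublets left out of both gates, 0 of 9822 genes were called, and the nonclassical gate lost a larger part of its cells than the members did.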

How the results depend on the processing

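Precision was limited by 3 libraries per group and by 116 to 180 members per library, and counting error was large for genes found in few members. No doublet caller was run. The count of genes called between groups, 0 in edgeR, was 90 with DESeq2, 179 without a filter on low counts, 35 with equal numbers of members per library and 0 to 8 with each library left out; the cause was not tested. The classical monocyte share of Ptprc barcodes, difference in percentage points (p16-DTR minus control), turned from -0.217 to 0.175 with all quality-passing barcodes as denominator, to 1.90 with the gate applied after thinning and to 0.722 with Flt3 and Treml4 unrestricted. It ran from -0.728 to 0.176 with each library left out. The classical share of monocytes turned from -3.83 to 5.01 percentage points after thinning and to 2.24 without likely doublets. After thinning the gate held 1597 barcodes against 974, because UMIs of the excluded genes were thinned too. Barcodes labelled likely doublets were a larger part of the nonclassical gate than of members. How many of them held 2 cells was not tested. The 5 calls of the difference between monocyte types became 113 without a filter, 0 after thinning (615 genes at an unadjusted p under 0.05), 0 without likely doublets, and 1 to 13 with each library left out. With the replicate number as a block, 0 genes were called between groups. Libraries with the same number did not deviate together, with correlations of -0.0123, 0.0275 and -0.0677, so the numbers were not treated as pairs. For 118 single genes, none of which passed adjustment in the reported test, the log2 fold change was recomputed 2112 times. It stayed within 1.5 times its value in 1612, moved by more in 389 and changed sign in 111, and the adjusted p was under 0.05 in 72, of which 30 were with DESeq2 and 32 without a filter on low counts. Without likely doublets 57 of 109 stayed within 1.5 times, 42 moved by more and 10 changed sign. Calcrl moved from -0.97 to -0.01 there and to -0.10 with the gate applied after thinning. Cdh5 turned from -0.60 to 0.67 without likely doublets, but it is a gene of that filter, so this value follows in part from the filter. With Flt3 and Treml4 unrestricted, Ddit4 moved from 1.63 to 0.89, Rasgef1b from 0.68 to 0.23, Itgal from 0.45 to 0.18 and Nfkbiz from 0.44 to 0.14. Cxcl2 moved from 0.81 to 0.46 and Kctd5 from 0.49 to 0.28 with the gate applied after thinning, and Ccl2 from 0.61 to 0.22 with equal numbers of members.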
